A study of Mus musculus with 31 samples.

Results

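The mitochondrial ribosomal protein genes are the nuclear genes named Mrpl and Mrps, and they were chosen here by name alone. Every gene of the deposited normalized table whose symbol reads Mrpl or Mrps, then a number and at most 1 letter, is a member, which gave 77 of the 20784 genes in that table. Of these, 48 carry an Mrpl name (large subunit) and 29 an Mrps name (small subunit). By their place in the ribosome 50 belong to the large subunit, because the proteins of Mrps30 and Mrps18a sit there. A further 26 belong to the small subunit. Mrps36 keeps its old name but is now known as a part of the 2-oxoglutarate dehydrogenase complex. The members lie on 17 chromosomes.

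The samples were single neurons of acute mouse brainstem slices, read by Patch-seq, in which a neuron is recorded by patch clamp and its cytoplasm is then drawn into the pipette and sequenced. There were 18 lateral olivocochlear (LOC) neurons from the lateral superior olive and 13 medial olivocochlear (MOC) neurons from the ventral nucleus of the trapezoid body. Both groups came from ChAT-IRES-Cre; tdTomato mice, where Cre expressed from the choline acetyltransferase gene marks cholinergic cells red, while the sample labels give the genotype as wild-type. The labels give neither age nor the animal behind a cell, and both groups had the same treatment, RNA sequencing after the recording. Each library is therefore 1 cell, each group counts as 1 sample, and no test between the groups was possible. Values are counts per 1000000 counts of the library (CPM), with exact 95% Poisson intervals for group sums, which cover counting error only.

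Mitochondria keep a ribosome of their own, which translates only the few messenger RNAs of the mitochondrial genome. Those messages code for core subunits of the respiratory chain and of ATP synthase. Every protein of this ribosome is made in the cytosol from nuclear genes and imported, whereas both of its ribosomal RNAs are mitochondrially encoded. Part of its proteins descend from those of bacterial ribosomes and part were gained in mitochondria. LOC and MOC neurons are the cholinergic brainstem cells that project to the cochlea, LOC axons mainly to auditory nerve fibres under the inner hair cells and MOC axons to the outer hair cells.

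Promoter sequences are shown for 6 members that met the size rule described further on. Mrps23, higher in MOC cells, met it under all alternatives tried, Mrpl24 was the single one higher in LOC cells, and the other 4 were picked for a motif match after the search, so the set shows what the matches look like and not how common they are. They are the 120 bases directly before the annotated start, on the gene's strand, from RefSeq (GRCm38.p6). The gene ranges given further on come from another annotation (GENCODE), whose starts can differ. Those of Mrpl3 and Mrpl24 begin inside the stretch shown. Capitals mark a match to CCGGAAGT, the core bound by ETS factors such as GABP, in Mrpl3 and Mrpl43, or to the palindromic NRF1 motif of 10 letters in Mrpl9 and Mrpl32. No searched motif lies in the stretches of Mrps23 and Mrpl24. The positions are chr11:88204268-88204387 (plus strand) for Mrps23, chr9:105053148-105053267 (plus) for Mrpl3, chr3:94443216-94443335 (plus) for Mrpl9, chr13:14613038-14613157 (minus) for Mrpl32, chr19:45006443-45006562 (minus) for Mrpl43 and chr3:87919424-87919543 (plus) for Mrpl24.
Mrps23: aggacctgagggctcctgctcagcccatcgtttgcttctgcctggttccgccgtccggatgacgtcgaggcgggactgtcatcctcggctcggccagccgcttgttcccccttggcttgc
Mrpl3: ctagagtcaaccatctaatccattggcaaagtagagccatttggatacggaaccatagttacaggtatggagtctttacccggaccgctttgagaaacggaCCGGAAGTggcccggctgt
Mrpl9: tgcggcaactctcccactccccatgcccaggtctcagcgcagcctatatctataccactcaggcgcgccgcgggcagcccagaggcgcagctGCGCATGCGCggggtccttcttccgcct
Mrpl32: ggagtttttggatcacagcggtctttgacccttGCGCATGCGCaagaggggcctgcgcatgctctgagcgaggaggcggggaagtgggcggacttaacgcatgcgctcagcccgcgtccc
Mrpl43: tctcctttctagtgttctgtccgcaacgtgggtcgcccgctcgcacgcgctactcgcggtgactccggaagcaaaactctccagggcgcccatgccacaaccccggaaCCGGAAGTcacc
Mrpl24: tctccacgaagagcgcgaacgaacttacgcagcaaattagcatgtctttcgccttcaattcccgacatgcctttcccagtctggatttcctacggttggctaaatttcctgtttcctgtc

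Of the 77 members, 68 had an entry in the RefSeq promoter table. Those without were Mrpl13, Mrpl15, Mrpl19, Mrpl38, Mrpl4, Mrpl54, Mrps28, Mrps34 and Mrps35. In windows of 300 bases (250 before the start and 50 after it), searched on both strands, CCGGAAGT stood in 12 of the 68 members (17.6%) and in 4.31% of 27025 genes. AAGATGGC, a core of the YY1 motif, was likewise found in 12 members (17.6%), against 3.19% of all genes. The NRF1 motif, with the letters capitalised in Mrpl9 and Mrpl32 above, was found in 3 members (4.41%), namely Mrpl9, Mrpl32 and Mrpl39, against 1.07% of all genes. Of the 13 members past the size rule in MOC cells 12 had an entry, and among these the ETS core stood in 2, the NRF1 motif in 2 and the YY1 core in 3 (Mrpl32, Mrpl35 and Mrpl49). The E-box CACGTG was found in 5 members (7.35%) and 8.09% of all genes, and TATAAA in 5 members (7.35%) and 15.7% of all genes. Distances were counted to the RefSeq start. The first base of the ETS match lay 19 bases before it in Mrpl3 and 12 in Mrpl43. That of the NRF1 match lay 28 bases before it in Mrpl9 and 87 in Mrpl32. Median GC content of the windows was 58% over the members and 52.75% over all genes. These matches describe letters in the windows, not binding.

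Many members also share their start region with another gene. For 33 of the 77 members (42.9%) a protein-coding gene on the opposite strand started within 1000 bases of the member's start. It either pointed away from the member or overlapped the member's start. The same held for 2084 of 14926 measured protein-coding genes (14%). Mrpl46 and Mrps11 form such a pair among themselves, with starts that overlap. Mrps12 stands 172 bases from Sars2, the mitochondrial seryl-tRNA synthetase, Mrpl49 stands 59 bases from Fau, Mrpl32 stands 75 bases from the proteasome gene Psma2, and Mrpl50 stands 83 bases from Zfp189. Values of pairs need not move together. Fau differed by -0.46 (LOC minus MOC, on the log2 scale defined next), against -2.01 for Mrpl49, and Wdfy1 by 0.53, against -1.54 for Mrpl44.

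Total counts per library ran from 356412 to 2627174 and the members held 91182 of 27894270 counts. Libraries LOC cell 6, MOC cell 2 and MOC cell 12 stood apart, with over 18000 genes read in each, where the other 28 had between 6654 and 15253. Reads of the cholinergic genes Chat, Slc18a3 and Slc5a7 together were below 10 in 4 LOC and 5 MOC cells, and 0 in LOC cell 14, LOC cell 16 and MOC cell 8, against the cholinergic label. Their summed level was 527 CPM in LOC cells against 234 CPM in MOC cells. Oligodendrocyte markers reached 67788 CPM in LOC cells and 60017 CPM in MOC cells, and ranged from 0.00227% to 23.9% of a library's counts in LOC cells and from 0.0363% to 12.3% in MOC cells. All 12 microglial markers were lower in LOC than in MOC cells by mean, 7 of them past the size rule in MOC, and none was at 0 in either group. They summed to 595 CPM in LOC cells (32.4 to 2253 per cell) and 2237 CPM in MOC cells (40.7 to 11139 per cell, the highest in MOC cell 8). The 4 inhibitory markers Gad1, Gad2, Slc32a1 and Slc6a5 summed to 268 CPM in LOC cells and 625 CPM in MOC cells. Their highest value, 2990 CPM, was also in MOC cell 8. By mean 3 of them were lower in LOC and 1 higher, and only Gad1 met the size rule, in MOC.

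Summed over all 77 members, the genes of the mitochondrial ribosome were at 2706 CPM in LOC cells (95% interval 2679 to 2733) and 3857 CPM in MOC cells (3824 to 3890), or 0.271% and 0.386% of counts. Cell by cell the sum was lowest at 1971, with a median of 2620 and a highest value of 4342 CPM in LOC cells, against 1906, 3640 and 7309 CPM in MOC cells. Most MOC cells lay above most LOC cells, but the ranges overlapped, since MOC cell 4 held the lowest value of all libraries and MOC cell 2 the highest. The mean was 2717 ± 579 CPM in LOC cells and 3789 ± 1363 CPM in MOC cells (SD over 18 and 13 cells). On the log2 scale the summed level was 11.38 ± 0.28 in LOC and 11.81 ± 0.50 in MOC cells, a difference of -0.43. Leaving out MOC cell 2 made it -0.34, and leaving out MOC cell 4 made it -0.50. In this material a lower level per neuron and a smaller share of neuronal cytoplasm in the library cannot be told apart.

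The number of members with at least 1 read was 58.5 at the median LOC cell (38 to 77 of 77) and 66 at the median MOC cell (38 to 77). With every cell thinned to 300000 counts the medians were 50.5 in LOC and 62 in MOC cells. LOC cell 13 (38 members), MOC cell 4 (38) and MOC cell 13 (39) read fewest members, and after thinning MOC cells 4 and 13 kept 26 and 27. Only LOC cell 6 and MOC cell 12, which also read over 18000 genes, held reads of all 77. The highest single member was Mrpl4 in 6 cells and Mrpl20 in 5 cells, and no other member led in more than 3. In MOC cell 4 a single gene, Mrpl49, made up 28.5% of the summed member level, while elsewhere the leading member held between 4.20% and 13.1%.

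**Figure D1:**
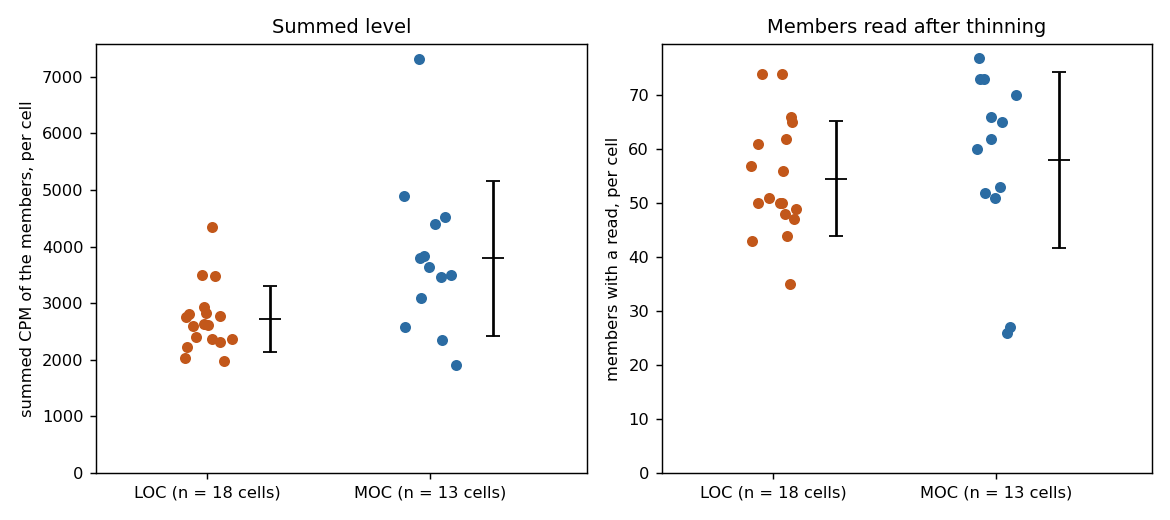
Left, summed CPM of the 77 members in each LOC (left, n = 18) and MOC cell (right, n = 13); right, number of members with a read after thinning each cell to 300000 counts. Points are cells and black marks are mean ± SD; the LOC cells lie between 1971 and 4342 CPM and the MOC cells between 1906 and 7309 CPM.

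Differences for single genes are LOC minus MOC means over cells of log2(CPM + 1). The added 1 shrinks the difference of low genes. Cells without a read weigh heavily in these means, so a difference can also be wider than that of the sums, as for Mrpl35 and Mrpl10. With no test at hand, genes were called by size alone. The size rule asked for 3 things in the higher group: a summed CPM of 2 times the other's or more, a mean higher by 1 or more on the log2 scale, and reads in 25% of its cells or more. All 77 members were measured, meaning that 25% or more of the cells in 1 of the groups held a read. Of the 77, 1 met the rule in LOC cells, against a background of 6.07% of 17754 measured genes, and 13 met it in MOC cells, against 5.67%. The remaining 63 met it in neither group. By sign alone 25 members were higher in LOC and 52 higher in MOC cells, and the median difference was -0.39, compared with -0.07 over all measured genes. Among the 10462 measured genes within the members' range of pooled CPM (4.62 to 113), the median difference was 0.01, and 981 met the rule in LOC cells, 878 in MOC cells. Values of every member overlapped between the groups. The share of all measured genes with such overlap was not computed, so this is no result about the members.

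The counts moved with the choice of libraries, and so did the share of all measured genes past the rule. In the 14 LOC and 8 MOC cells with at least 10 cholinergic reads, 2 members met the rule in LOC cells, 20 in MOC cells, and the median difference was -0.67, beside 8.47% and 6.90% of all measured genes and their median of -0.11. Without the 3 libraries richest in microglial markers, which were all MOC cells, the counts were 3 and 15 and the median was -0.14 (all genes 7.37%, 5.83% and -0.05). Without the 3 libraries with over 18000 genes read they were 1 and 14, with a median of -0.36 (all genes 8.05%, 5.89% and -0.03). Without libraries above 10% oligodendrocyte markers (14 LOC and 11 MOC cells left) they were 1 and 11, with a median of -0.23 (all genes 9.28%, 5.16% and 0.00, or 0.0044 before rounding). Leaving out any single cell gave 0 to 2 members in LOC and 10 to 17 in MOC, and a median between -0.59 (MOC cell 4 left out) and -0.27 (MOC cell 10 left out). Over the same runs 5.15% to 7.33% of all measured genes met the rule in LOC and 4.80% to 6.63% in MOC, with a median between -0.13 and -0.02. The part of glial RNA in these differences was not tested.

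**Figure D2:**
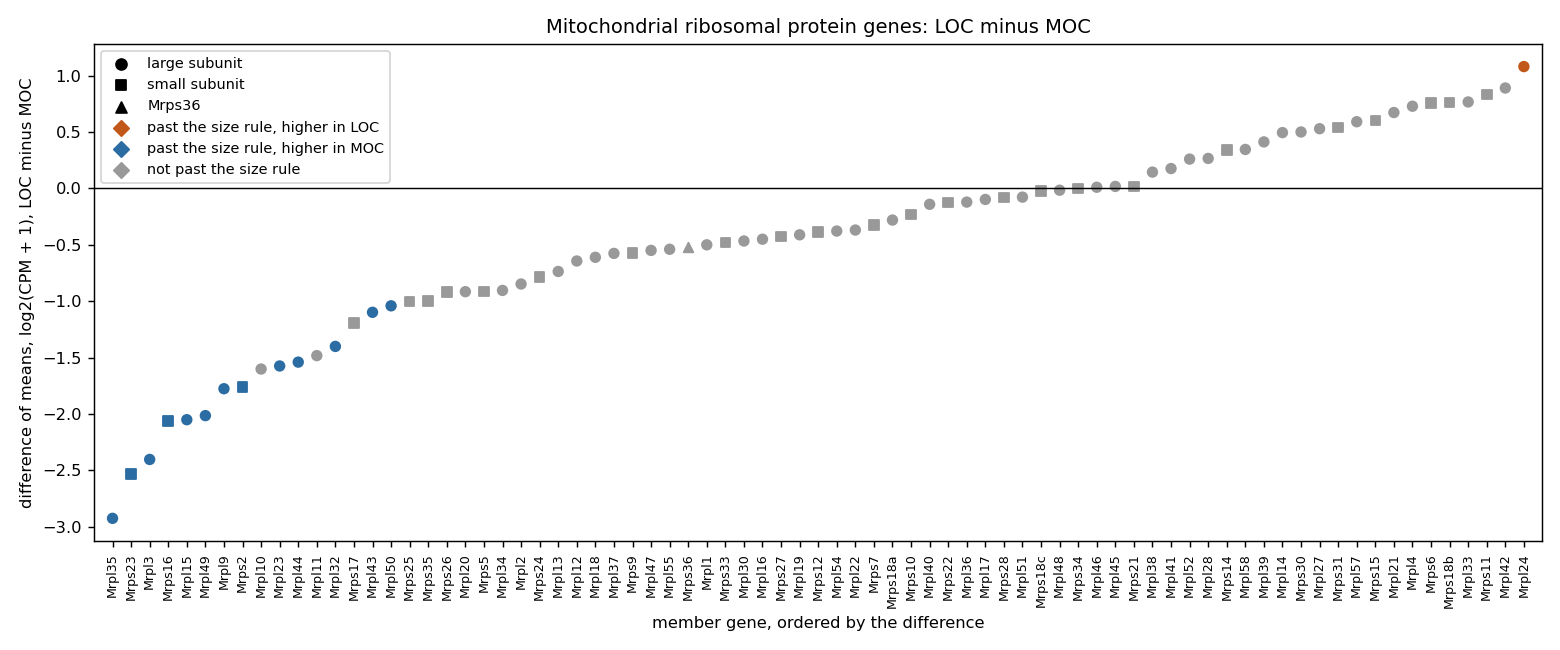
Difference of mean log2(CPM + 1), LOC minus MOC, for each of the 77 members in order of size; circles are large subunit, squares small subunit and the triangle Mrps36. The values run from -2.92 (Mrpl35) to 1.08 (Mrpl24), and 13 members past the size rule in MOC stand at or near the left end.

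Within the large subunit, 30 members belong to the type with bacterial counterparts. Of these, 6 met the rule in MOC cells and 1 in LOC cells, with 7 higher in LOC, 23 higher in MOC, and a median difference of -0.54. They were Mrpl3, Mrpl9, Mrpl15, Mrpl23, Mrpl32 and Mrpl35 in MOC cells, and Mrpl24 in LOC cells. Mrpl3, a core protein that reaches towards the peptidyl transferase centre, had 0, 4.91 and 236 CPM as the lowest, median and highest LOC values, against 0.690, 82.7 and 302 CPM in MOC cells. Every MOC cell held a read of it, whereas 5 LOC cells did not. Its sums were 37.2 CPM in LOC cells (34.1 to 40.5) against 107 CPM in MOC cells (102 to 113), with means of 3.22 ± 2.97 and 5.62 ± 2.51 and a difference of -2.40. The gene lies at chr9:105053239-105079888 on the plus strand of GRCm38 by GENCODE. Its promoter is the one above, with the ETS match 19 bases before the RefSeq start. That start lies after the GENCODE one, so the match falls inside the range given here.

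Mrpl35 (chr6:71812997-71826969, minus strand) had the widest difference of all members, -2.92. Its median was 0.356 CPM in LOC cells (0 to 154) and 39.2 CPM in MOC cells (0 to 357). It was read in 9 of 18 LOC cells (50%, exact 95% Clopper-Pearson interval 26% to 74%) and 12 of 13 MOC cells (92.3%, 64.0% to 99.8%). The sums were closer, at 23.7 CPM in LOC cells against 59.6 CPM in MOC cells, since LOC cell 2 alone held 57.1% of the LOC reads. MOC cell 4 held 27.3% of the MOC reads. Without it, the MOC sum was 1.92 times the LOC sum and the gene no longer met the rule, although the difference was still -2.62. It also left the rule when cells with few cholinergic reads were set aside.

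Mrpl15 (chr1:4773206-4785739, minus strand) was read in 14 of 18 LOC cells and all 13 MOC cells. The median was 10.7 CPM in LOC cells (0 to 94.6) and 36.6 CPM in MOC cells (0.690 to 218), with sums of 19.5 and 65.2 CPM and a difference of -2.05. Mrpl9, the counterpart of a long, outward-reaching protein of the bacterial ribosome, had a median of 3.49 CPM in LOC cells (0 to 86.4) and 39.4 CPM in MOC cells (0 to 168). Its sums were 23.3 CPM in LOC cells against 72.6 CPM in MOC cells, a difference of -1.78. Mrpl23, a protein at the rim of the exit tunnel, summed to 10.2 CPM in LOC cells (0 to 36.6 per cell) against 40.7 CPM in MOC cells (0 to 135 per cell), a difference of -1.57, although it was read in 13 of 18 LOC and 10 of 13 MOC cells. Mrpl32, whose protein is cut by the m-AAA protease before it is built into the ribosome, summed to 22.6 CPM in LOC cells against 49.1 CPM in MOC cells, a difference of -1.40. Its sums differed by 1.98 times without LOC cell 2, by 1.98 times without MOC cell 2, and by 1.91 times without MOC cell 10, so that it left the rule in each of these runs. It also left the rule with thinning to 300000 counts, a pseudocount of 10 or a rule of 3 times.

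Mrpl24 (chr3:87919506-87923672, plus strand), an assembly-initiating protein in the bacterial ribosome, was the only member past the rule in LOC cells. Its median was 9.45 CPM in LOC cells (0 to 79.3) and 1.61 CPM in MOC cells (0 to 25.4), with reads in 13 of 18 and 8 of 13 cells. The sums were 16.8 CPM in LOC cells (14.7 to 19.0) against 6.16 CPM in MOC cells (4.91 to 7.63), and the difference 1.08. The call was close to the limit. It was lost without any 1 of 12 cells (LOC cells 3, 8, 9, 11, 12, 15 and 16 and MOC cells 1, 3, 5, 9 and 13), with a difference between 0.88 and 0.99 in those runs. It was also lost with TMM library sizes and with the authors' deposited normalized values. Its exons share 594 bases with Rrnad1 on the opposite strand, and the libraries keep no strand.

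The other 20 large subunit members were classed as mitochondria-specific, including Mrps18a, although its paralog Mrps18c was classed with the bacterial type. Here 4 met the rule in MOC cells, none in LOC cells, 10 were higher in each group and the median difference was 0.00 (-0.002 before rounding). Mrpl49 (chr19:6053622-6057785, minus strand) had a median of 14.9 CPM in LOC cells (0 to 119) and 30.5 CPM in MOC cells (1.67 to 543). It was read in 14 of 18 LOC and all 13 MOC cells, summed to 29.8 CPM in LOC cells against 100.03 CPM in MOC cells, and differed by -2.01. Mrpl44, which carries a fold of the RNase III family, was a low gene with reads in 7 of 18 LOC cells against 9 of 13 MOC cells. Its sums were 4.28 CPM in LOC cells against 20.3 CPM in MOC cells, a difference of -1.54. Mrpl49, Mrpl44 and Mrpl9 share exon bases with Syvn1, Wdfy1 and Oaz3 on the opposite strand, and in these libraries such reads cannot be told apart. Mrpl3 likewise shares 248 exon bases with Gm38077 on its own strand and 24 with Gm47106 on the opposite strand.

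Mrpl43 and Mrpl50 were nearer to the limits of the rule. Mrpl43 summed to 16.1 CPM in LOC cells (0 to 75.3 per cell) against 44.3 CPM in MOC cells (0 to 271), a difference of -1.10. It left the rule without LOC cells 2, 14 or 16 or MOC cells 2, 5, 6, 8 or 9, with a difference of -0.78 without MOC cell 2 and between -0.998 and -0.908 in the other 7 runs. The call was also lost without the 3 libraries richest in microglial markers and without those above 10% oligodendrocyte markers. The same held without libraries with over 18000 genes read, with a pseudocount of 10 and with a rule of 3 times. Its exons share 507 bases with Twnk, the mitochondrial DNA helicase, on the opposite strand. Mrpl50 was read in the fewest cells of all members, 5 of 18 LOC and 7 of 13 MOC cells. It summed to 4.84 CPM in LOC cells against 13.4 CPM in MOC cells, with 59.0% of the MOC reads in MOC cell 2. Its difference of -1.04 was -0.64 without that cell, and the rule was missed in 19 of 31 runs with 1 cell left out (13 LOC cells, with -0.97 in each, and MOC cells 1, 2, 6, 10, 11 and 12, between -0.97 and -0.64). Mrpl50 also missed it without libraries above 10% oligodendrocyte markers and without those with over 18000 genes read. Thinning to 300000 counts, a pseudocount of 10 and a rule of 3 times ended its call too.

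Of the 26 small subunit members 3 met the rule in MOC cells and none in LOC cells, with 8 higher in LOC, 18 higher in MOC and a median difference of -0.36. The 16 classed with bacterial counterparts had a median of -0.28 and the 10 classed as mitochondria-specific, including Mrps18b, a median of -0.45. Mrps23 (chr11:88204388-88211507, plus strand) is one of the mitochondria-specific proteins. Its median was 3.80 CPM in LOC cells (0 to 43.1) and 33.2 CPM in MOC cells (0 to 350.3), with reads in 11 of 18 LOC cells against 12 of 13 MOC cells. The sums were 12.7 CPM in LOC cells (10.9 to 14.7) against 63.2 CPM in MOC cells (59.1 to 67.6), which is 4.98 times as much in MOC, and the difference was -2.53. This was the member that met the rule under all alternatives tried, including each of the 31 runs with a cell left out, where the difference stayed between -2.94 and -2.24.

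Mrps16 and Mrps2, both of bacterial type, completed the group. Mrps16 (chr14:20389304-20393634, minus strand) was read in 12 of 18 LOC cells and all 13 MOC cells. Its median was 7.69 CPM in LOC cells (0 to 112) and 36.6 CPM in MOC cells (1.44 to 272), and the sums of 21.5 and 63.2 CPM went with a difference of -2.06. Mrps2 (chr2:28468066-28471178, plus strand) had a median of 0.648 CPM in LOC cells (0 to 78.6) and 12.8 CPM in MOC cells (0 to 112), with sums of 12 and 36.7 CPM and a difference of -1.76. Both kept their place past the rule in all 31 runs with a cell left out, as did Mrpl3, Mrpl9, Mrpl15, Mrpl23, Mrpl44, Mrpl49 and Mrps23. Other alternatives took most of these out of the rule. Mrpl9, Mrpl23, Mrpl44 and Mrps2 left it with a pseudocount of 10, and Mrpl3, Mrpl23, Mrpl44 and Mrps16 with a rule of 3 times. Mrpl23 also left it without libraries above 10% oligodendrocyte markers. Mrpl15 and Mrpl49 left it only where 1 LOC cell remained.

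**Figure D3:**
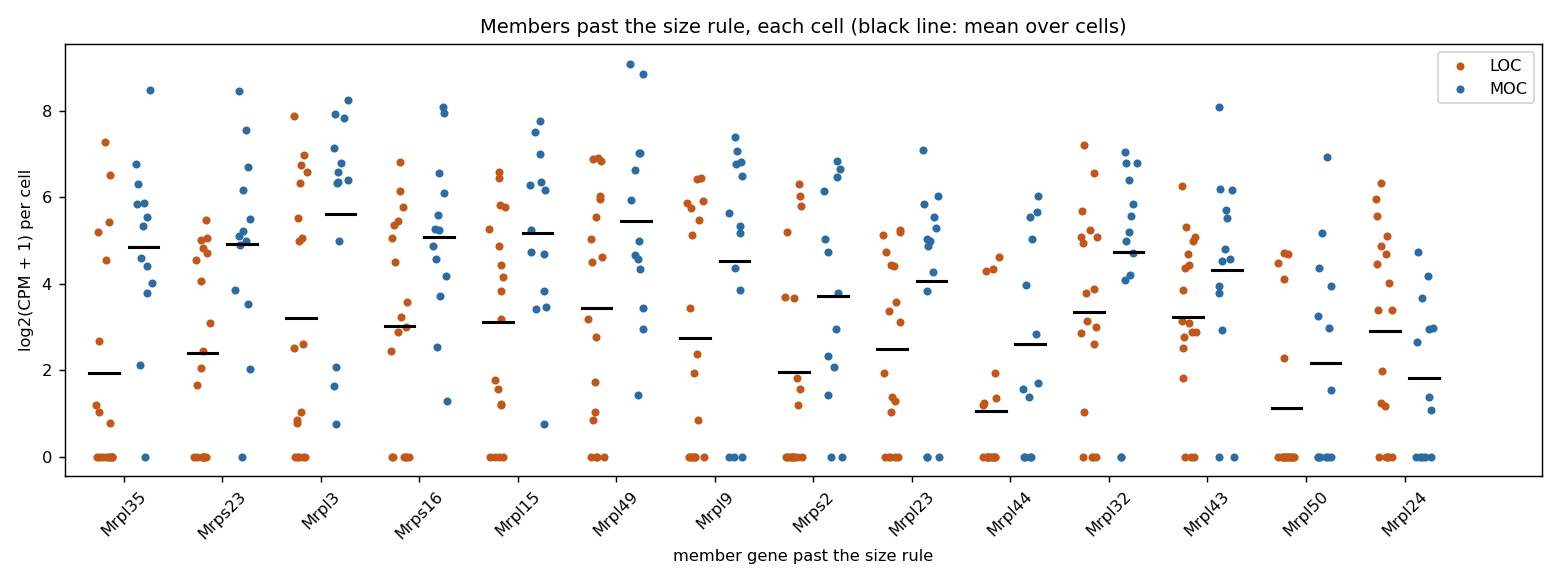
Log2(CPM + 1) in each LOC (left) and MOC cell (right) for the 14 members past the size rule; black lines are means over the 18 LOC and 13 MOC cells. Points at 0 are cells without a read, which are 9 of 18 LOC cells and 1 of 13 MOC cells for Mrpl35.

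Some members had wide sums but did not meet the rule. Mrps35, a small subunit protein, summed to 16.9 CPM in LOC cells against 74.5 CPM in MOC cells, but 56.4% of the MOC reads came from MOC cell 2 and the difference of means was -0.995, just short of the limit. Mrpl51 summed to 38.2 CPM in LOC cells against 107 CPM in MOC cells, with 47.1% of the MOC reads in MOC cell 2 and a difference of means of -0.08. Mrps18b went the other way, with 15.1 CPM in LOC cells against 3.37 CPM in MOC cells, a ratio of 4.47, yet its difference of means was 0.76. Just past the limit stood Mrpl50 at -1.04 and Mrpl43 at -1.10. Mrpl10, Mrpl11, Mrps17 (a difference of -1.19) and Mrps25 (-1.002) were short on their sums instead. Mrpl10 had 16.8 CPM in LOC cells against 29.5 CPM in MOC cells with a difference of -1.60, and Mrpl11 had 26.4 CPM in LOC cells against 45.3 CPM in MOC cells with a difference of -1.48. Mrps35, Mrpl51, Mrpl10, Mrpl11, Mrps17 and Mrps25 were picked after their values were seen.

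After Mrpl24 the members highest in LOC relative to MOC cells were Mrpl42, Mrps11, Mrpl33 and Mrps18b, none past the rule. Mrpl42 had a median of 94.9 CPM in LOC cells (0 to 232) and 56.5 CPM in MOC cells (0 to 173), with near-equal sums of 94.5 and 83.5 CPM and a difference of 0.89. Mrps11, a protein of the small subunit platform, summed to 53.4 CPM in LOC cells against 21.6 CPM in MOC cells, 2.47 times as much in LOC, with 34.8% of the LOC reads in LOC cell 13 and a difference of 0.83. It shares 173 exon bases with its neighbour Mrpl46, which had 39.8 CPM in LOC cells against 30.1 CPM in MOC cells. Mrpl33 summed to 22.4 CPM in LOC cells against 15.8 CPM in MOC cells, with a difference of 0.77. It shares 261 exon bases with Gm43809 on its own strand.

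The 3 paralogs of the Mrps18 family, whose proteins take different places in the ribosome, did not differ in a common direction. Mrps18a, of the large subunit, averaged 3.83 ± 2.48 in LOC and 4.11 ± 2.51 in MOC cells on the log2 scale, a difference of -0.28. Mrps18b averaged 2.18 ± 2.34 in LOC and 1.42 ± 1.43 in MOC cells. Mrps18c averaged 2.75 ± 2.31 in LOC and 2.77 ± 2.10 in MOC cells, a difference of -0.02. Per kb of exon their levels over all 31 cells were 9.34 CPM for Mrps18a, 4.48 CPM for Mrps18b and 16.5 CPM for Mrps18c. Mrps18b shares 638 exon bases with Gm16279 on the opposite strand, and Mrps18c 250 with Gm43511 on its own strand.

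Among Mrpl12, Mrps12, Mrpl44, Mrpl45, Mrpl58 and Mrps36, which were named for their roles, Mrpl44 alone met the rule. Mrpl12, the stalk protein that receives the translation factors, averaged 5.73 ± 2.01 in LOC and 6.38 ± 1.60 in MOC cells, a difference of -0.64, and its highest value was 645 CPM in MOC cell 2. Mrps12, part of the decoding centre, averaged 4.99 ± 2.06 in LOC and 5.37 ± 2.53 in MOC cells, a difference of -0.39. Mrpl45, which ties the tunnel exit to the inner membrane, averaged 3.80 ± 2.66 in LOC and 3.78 ± 3.03 in MOC cells. Its sums were nevertheless 39.1 CPM in LOC cells against 62.3 CPM in MOC cells, and MOC cell 3 held 41.2% of the MOC reads. Mrpl58, a peptidyl-tRNA hydrolase that releases stalled chains, averaged 4.19 ± 2.27 in LOC and 3.85 ± 2.10 in MOC cells. Mrps36 averaged 3.32 ± 1.94 in LOC and 3.84 ± 1.88 in MOC cells, a difference of -0.52.

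Levels between members can be compared per kb of exon, using the union of annotated exons, which counts exons that these cells may not use. On that scale the pooled level over all 31 cells ran from 1.41 CPM per kb for Mrps30 to 97.1 CPM per kb for Mrpl41. Mrpl54 (70.7), Mrps12 (68.9), Mrpl20 (67.5), Mrpl12 (67.2) and Mrpl28 (61.9 CPM per kb) came next, and the values of all 6 overlapped across cells. The level of Mrpl41 per kb was 86.5 CPM in LOC cells against 108 CPM in MOC cells, that of Mrpl54 was 51.7 and 90.5 CPM, and that of Mrpl28 was 61.9 and 62.0 CPM. Mrpl41 had a median of 82.0 CPM in LOC cells (0 to 187) and 74.6 CPM in MOC cells (3.34 to 325). Mrpl20 had a median of 76.1 CPM in LOC cells (0 to 253) against 132 CPM in MOC cells (1.12 to 334), with a difference of -0.91.

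Reads of a member were found in between 12 and 30 of the 31 cells, with a median of 25, and no member was read in all. Mrpl12, Mrpl20, Mrpl41, Mrps5 and Mrps33 were read in 30 cells each. The fewest cells were those of Mrpl50 (12), Mrpl44 (16), Mrps30 (17) and Mrpl1 (18). Mrpl1 summed to 19.4 CPM in LOC cells against 19.7 CPM in MOC cells, and Mrps30 to 11.2 CPM in LOC cells against 7.55 CPM in MOC cells. In a single cell a count of 0 allows up to between 1.14 and 8.42 CPM, depending on its depth, so a missing read of a low member does not show that the gene was silent.

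**Figure D4:**
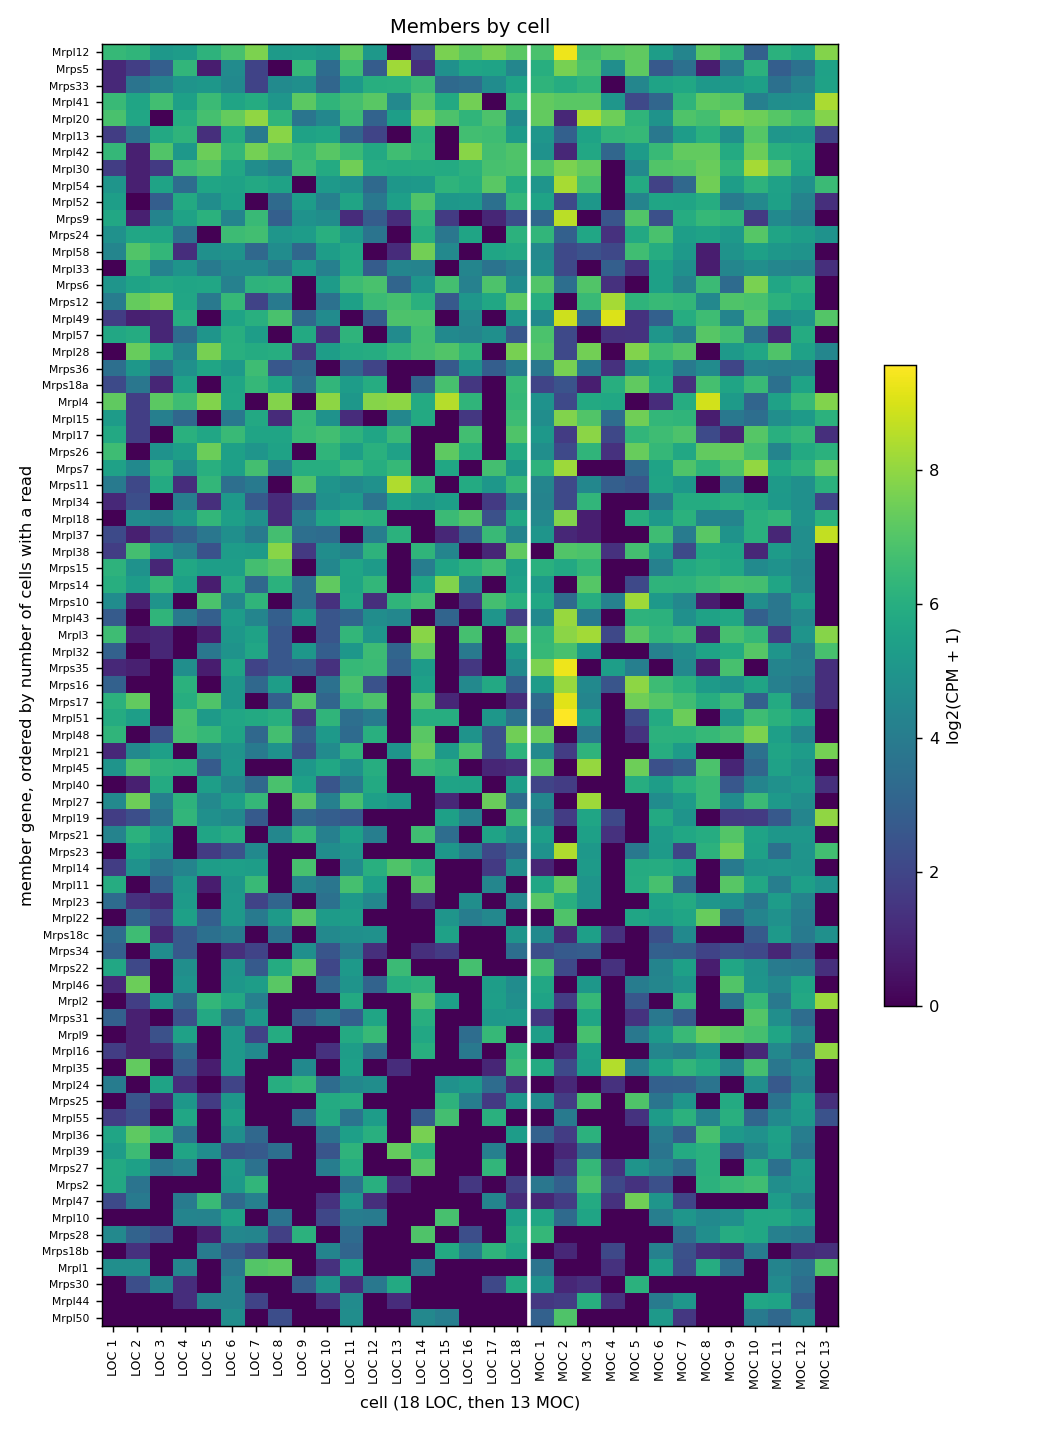
Log2(CPM + 1) of the 77 members (rows, ordered by the number of cells with a read) in the 18 LOC cells (left of the white line) and 13 MOC cells (right of it). LOC cell 6 and MOC cell 12 show reads of all 77 members, and MOC cells 4 and 13 show 38 and 39.

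Members varied largely on their own across cells. Over 2926 pairs of members the median Pearson correlation of log2(CPM + 1) over the 31 cells was 0.11, beside 0.06 over all pairs of measured genes in the same range of pooled CPM. Values above 0.5 were seen for 63 pairs, the highest being Mrps6 and Mrps15 (0.75). The share of such pairs among all measured genes in that range was not counted, so the 63 have no background. The summed large subunit level and the summed small subunit level had a Pearson correlation of 0.57 and a Spearman correlation of 0.56 over 31 cells, which share library and depth. The ratio of the large to the small subunit sum was 2.22 at the median LOC cell (1.33 to 3.98) and 2.32 at the median MOC cell (1.36 to 5.92, the highest in MOC cell 13). With total counts the summed member level had a Spearman correlation of 0.26 over the same 31 cells (-0.08 over LOC cells, 0.26 over MOC cells), and with genes read one of -0.19 (-0.11 over LOC cells, -0.46 over MOC cells). With summed microglial markers it was 0.07 (0.05 over LOC cells, -0.36 over MOC cells). With summed oligodendrocyte markers the Spearman correlation was -0.18 (-0.15 over LOC cells, -0.33 over MOC cells) and the Pearson correlation -0.32 (-0.56 over LOC cells, -0.16 over MOC cells). These correlations describe the libraries and rest on sparse counts.

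The summed levels of both subunits were lower in LOC than in MOC cells. The large subunit summed to 1837 CPM in LOC cells (1815 to 1859) against 2639 CPM in MOC cells (2612 to 2666), and the small subunit to 851 CPM in LOC cells (836 to 866) against 1191 CPM in MOC cells (1173 to 1209). The sums were closer together for the 5 measured genes of the ribosome that carry other names. Dap3, Ptcd3, Chchd1, Aurkaip1 and Gadd45gip1 summed to 190.3 CPM in LOC cells against 178 CPM in MOC cells, none met the rule, and the median difference was 0.23. The difference between these 5 and the members was not tested.

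Genes that work with the mitochondrial ribosome were taken from lists of known genes. Of 16 translation factors 2 met the rule in LOC and none in MOC cells, with a median difference of -0.02 (all measured genes 6.07% and 5.67%). The factors past the rule were Gfm2, a factor that splits the ribosome for recycling, with 33.2 CPM in LOC cells (15 of 18 cells) against 7.19 CPM in MOC cells (10 of 13), and Guf1, a GTPase related to bacterial LepA, with 45.7 CPM in LOC cells against 19.5 CPM in MOC cells. Gfm2 kept the call in all 31 runs with a cell left out, with differences of 1.27 to 1.77. Guf1 lost it without LOC cell 13 (1.97 times) or MOC cell 7 (1.90 times).

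Another list held 28 factors of ribosome assembly and of RNA processing or modification, not all of them acting on ribosomal RNA. Of these, 3 met the rule in LOC cells and 7 in MOC cells, beside 6.07% and 5.67% of all measured genes. The median difference was 0.03. Those higher in LOC were Mettl17, needed for small subunit assembly, with 88.2 CPM in LOC cells against 17.9 CPM in MOC cells, Mterf3 with 36.6 and 5.87 CPM, and Nsun3, a methyltransferase acting on a mitochondrial tRNA, with 8.07 and 1.54 CPM. Those higher in MOC included Fastkd2, an RNA-binding protein of large subunit assembly, with 9.68 CPM in LOC cells against 49.5 CPM in MOC cells, and C1qbp with 50.4 CPM in LOC cells against 137 CPM in MOC cells. Nsun4, a ribosomal RNA methyltransferase, had 8.56 CPM in LOC cells against 29.3 CPM in MOC cells. The other 4 were Ddx28, Gtpbp10, Mrm2 and Rpusd4. Mettl17, Mterf3, Fastkd2 and Nsun4 kept their calls in every run with a cell left out. C1qbp lost its call without MOC cell 2 (1.52 times), Mrm2 without MOC cell 5 (-0.86), Gtpbp10 without MOC cells 4, 5 or 12 (-0.52 without MOC cell 5), and Rpusd4 without MOC cells 8 or 9 (1.11 and 1.96 times). Ddx28 and Nsun3 each lost theirs in 16 of the 31 runs. Without cells of few cholinergic reads, Nsun4 and Rpusd4 no longer met the rule.

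The messages that this ribosome translates stood the other way. Of 13 mitochondrially encoded messenger RNAs 11 were measured, all 11 were higher in LOC than in MOC cells by mean, none met the rule, and the median difference was 0.78. They summed to 87570 CPM in LOC cells against 71789 CPM in MOC cells, and ranged from 1.18% to 23.3% of counts in LOC cells and from 0.572% to 15.2% in MOC cells. mt-Cytb had 27405 CPM in LOC cells against 20918 CPM in MOC cells, and mt-Nd1 had 19207 and 14413 CPM. mt-Co1 had a sum of 17822 CPM in LOC cells against 19466 CPM in MOC cells, although its difference of means was 0.41. mt-Co2, mt-Co3 and mt-Atp6 were listed below 7 CPM in both groups. Both mitochondrial ribosomal RNAs were higher in LOC cells too, at 96934 CPM in LOC cells against 77476 CPM in MOC cells, with a median difference of 0.77. Over the 31 cells the summed member level had a Spearman correlation of -0.40 with the summed mitochondrial messages (-0.31 over 18 LOC cells and -0.48 over 13 MOC cells), and both are shares of the same library.

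Other nuclear mitochondrial genes and the cytosolic ribosome served for comparison. The 40 genes of respiratory complex I summed to 5666 CPM in LOC cells against 8381 CPM in MOC cells, with none past the rule in LOC, 4 in MOC and a median difference of -0.19. The 78 measured cytosolic ribosomal protein genes summed to 14082 CPM in LOC cells against 18733 CPM in MOC cells, with none past the rule in either group and a median difference of -0.14. Of 28 protein import genes 1 met the rule, Pmpca, a subunit of the protease that removes import signals, with 24.7 CPM in LOC cells against 60.4 CPM in MOC cells. It lost the call without MOC cell 13 (1.72 times) and in the cells with at least 10 cholinergic reads. The 17 mitochondrial tRNA synthetases had none past the rule and a median of 0.08. Of 10 genes for transcription and replication of mitochondrial DNA only Top1mt met the rule, in MOC cells (0.140 CPM in LOC cells against 5.65 CPM in MOC cells, 59.7% of it in MOC cell 4), and of 10 transcription factors and coactivators of mitochondrial genes only Gabpb2, in MOC cells (5.26 and 11.7 CPM), which lost it in 17 of 31 runs. The difference between the members and these lists was not tested.

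**Figure D5:**
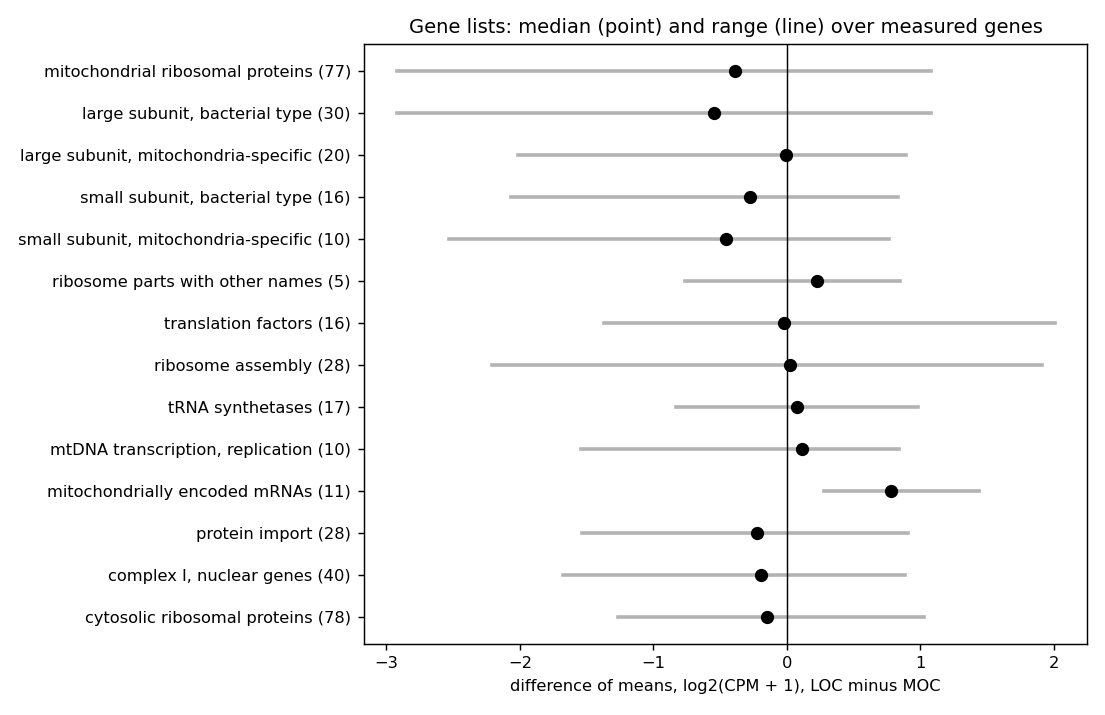
Median (point) and range (line) of the differences of mean log2(CPM + 1), LOC minus MOC, over the measured genes of each list, with the number of genes in brackets. The members have a median of -0.39 and a range from -2.92 to 1.08, and the mitochondrially encoded mRNAs a median of 0.78 with all values above 0.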

How the data were processed

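Cytoplasm of 31 patched neurons (18 LOC, 13 MOC, by the labels) was read as Smart-seq2 cDNA with Nextera libraries, which keep no strand, in pairs of 75 bp. The authors deposited raw counts per gene, of which 55421 rows carry mouse identifiers. Their deposited normalized signal table (20784 genes, CPM on TMM-adjusted sizes by its name) supplied the member names and an alternative scaling. The submitters' processing notes name STAR 2.5.2, limma, edgeR and DESeq2, and 2 build names, mm10 and GRCm38. The way reads were assigned to genes was not stated in the sources used here, so reads of near-identical copies may have been split or dropped.

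CPM was computed here with all mouse counts of a cell as its size. Coordinates and exon lengths came from GENCODE M21 (GRCm38), counted from 1. Group sums have exact 95% Poisson intervals and shares of cells Clopper-Pearson intervals, and the lowest level allowed for a sum was 3 counts over the group. edgeR 4.0.16 (R 4.3.3) gave TMM sizes, and Python 3.11.15 with scipy 1.17.1 the rest. The size rule was tried on simulated counts, with genes of higher level and a larger change than most members called here had. That trial does not bear on their calls. No pair of libraries was identical. Members, lists and thresholds were chosen with earlier results of these data known. Members were named with values if they met the size rule, led in level per kb, in cells read (most or fewest) or in difference, belonged to the Mrps18 family, or had a known special task.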

Additional observations from a re-analysis of the deposited data

How the results depend on the processing

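The count of members past the size rule was 1 in LOC and 13 in MOC cells. It was 0 and 6 with a pseudocount of 10 (2.08% and 1.18% of all measured genes), 3 and 21 with a rule of 1.5 times (14.3% and 15.3%), and 0 and 5 with a rule of 3 times (1.75% and 1.29%). The LOC count was 0 with TMM library sizes (5.10% of all genes) and with the authors' normalized values (5.14%), 2 in cells with at least 10 cholinergic reads (20 in MOC) and 3 with the 3 most microglia-rich libraries set aside. With TMM sizes Mrpl34, Mrps25 and Mrps35 joined the 13 in MOC (6.94% of all genes), and with the authors' values Mrps25 and Mrps35 did (6.78%). The median difference over all measured genes was then -0.13 and -0.12. Leaving out 1 cell at a time gave 0 to 2 in LOC and 10 to 17 in MOC cells, and over the same runs the median difference was -0.59 to -0.27 (large subunit -0.60 to -0.26, small subunit -0.49 to -0.19), the difference of the summed level -0.50 to -0.34 and that of the median number of members read -9 to -7.

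Setting aside libraries above 1% oligodendrocyte markers left 1 LOC and 4 MOC cells. The values then describe a single LOC cell (LOC cell 14, without a cholinergic read): 24 members past the rule in LOC (15.8% of all measured genes) and 17 in MOC (15.5%), a median difference of 1.89 (large 1.95, small 2.02), a summed difference of 0.20 and 8 more members read. Among the 14 members past the rule, the differences of Mrpl3 (1.64), Mrpl9 (4.78), Mrpl24 (-0.62), Mrpl32 (3.82), Mrpl49 (0.28), Mrpl50 (2.75) and Mrps16 (0.48) had the opposite sign there, as did those of 6 other named members (Mrpl1, Mrpl20, Mrpl54, Mrps12, Mrps18b and Mrps30). Over the 32 named members, 1360 of 1376 alternative values moved by less than the SD between cells, and the other 16 were all in that setting. That SD can exceed the difference itself, and leaving out 1 cell can hardly move a mean that far. The count therefore does not show that the values are stable. Mrpl15, at -2.05 with all cells, reached -0.40 in an alternative and still moved by less than its SD. The sign changed in 74 values, 13 of them with the 1% limit on oligodendrocyte markers. The other 61 belong to 9 members that did not meet the rule (Mrpl1, Mrpl28, Mrpl33, Mrpl41, Mrpl45, Mrpl58, Mrps12, Mrps18a and Mrps18c), with 25 in all for Mrpl45 and 20 for Mrps18c. No paired analysis was possible because the result comes from no test and the numbers in the labels only name cells. The alternatives on oligodendrocyte markers above 10% and on libraries with over 18000 genes read were chosen after seeing the data. Depth limits the low members most: a count of 0 in a cell allows 1.14 to 8.42 CPM.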
